A study of Homo sapiens with 6 samples.

Results

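The 9 genes described here encode secreted proteins listed as inhibitors of angiogenesis, the growth of new blood vessels from existing ones: the vasohibins VASH1 and VASH2, the thrombospondins THBS1 and THBS2, the tissue inhibitors of metalloproteinases TIMP1, TIMP2 and TIMP3, the protease ADAMTS1, and SERPINF1, which encodes pigment epithelium-derived factor. They were taken by name from a list, and every probe set that the platform annotation gave to 1 of these symbols alone was read. That gave 27 probe sets of the 54675 on the array, for 9 of the 19775 genes with a probe set of their own.

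Angiogenesis depends on a balance between factors that activate endothelial cells and factors that restrain them. Vasohibins cut the terminal tyrosine from tubulin, thrombospondins bind CD36 and CD47 on endothelial cells, TIMPs block the metalloproteinases that open the matrix, and ADAMTS1 cleaves matrix proteoglycans. VASH2, unlike VASH1, has mostly been described as promoting vessel growth, so the list is one of families rather than of a single activity. Apart from the vasohibins, which lack a classical signal sequence, these proteins enter the endoplasmic reticulum (ER) on their way out of the cell.

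Daoy, an established line from a human medulloblastoma, was grown in medium with serum and either left untreated or given 1 µM thapsigargin (Tg) for 3 h or 8 h. Tg inhibits the calcium pump of the ER and sets off the unfolded protein response (UPR). Each of the 3 groups was hybridized to 2 Affymetrix arrays, replicate 1 and replicate 2. The methods speak of 2 independent experiments, but the labels do not say that arrays of the same number shared a culture or a day, so a change within a replicate number pairs arrays by that number alone. The values are MAS5 signals, a linear brightness that had been brought to a common trimmed mean across arrays. A single line was used, so the p-values measure the spread between replicate arrays of these cells, and their precision is that of 2 arrays per group. In such bulk RNA, fewer cells that express a gene and less RNA per cell cannot be told apart.

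A probe set was tested if its signal reached 100 on 2 or more of the 6 arrays, which kept 27616 probe sets and 20 of the 27 member probe sets, with at least 1 for each of the 9 genes. Changes are differences of mean log2 signal, tested with limma and adjusted by Benjamini-Hochberg over all 27616 probe sets, with a threshold of 0.05. Because each replicate number held all 3 groups, a second fit had the replicate number as a block and is called the blocked fit. The 18S rRNA control ran from 853.2 to 1220.4 on the replicate 1 arrays and from 3543.8 to 4534.7 on the replicate 2 arrays, so the replicate numbers separated on a measure outside the genes. DNAJB9, an ER co-chaperone, was at 1670.9 and 2095.8 in untreated cells, at 14418.5 and 14443.1 after 3 h, and at 22367.0 and 16832.7 after 8 h, and rose in both fits. Of 7 UPR genes examined, 1 rose at 3 h and 3 at 8 h without the block, and 5 and 6 in the blocked fit. In that fit 1.17% of all genes passed as higher at 3 h and 4.76% at 8 h. The 2 untreated arrays were further apart on DDIT3 (405.4 and 1654.4), HERPUD1 (1376.1 and 6623.3), XBP1 (907.9 and 3018.0) and ATF4 (4504.9 and 20998.9). On ATF4 untreated replicate 2 lay above Tg 3 h replicate 1 (15523.2). On DDIT3, HERPUD1 and XBP1 both untreated arrays lay below all treated arrays. SDF2L1 was higher on untreated replicate 1 (1258.9 and 593.4), and HSPA5 was close on the 2 (16614.5 and 18933.2).

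The cells carried the neural and progenitor markers of their label in part, each read on its brightest probe set. Of 15 such markers, 10 were above 100 on all 6 arrays, including ZIC1, ZIC2, SOX2, SOX9 and TUBB3, while MYCN, ATOH1, SYP and GFAP stayed under 100 on every array. Of 10 endothelial markers, 5 passed the filter, and TIE1 alone was above 100 on all arrays. TEK ran from 94.6 to 358.9 and ERG from 62.6 to 689.6, while VWF, ESAM and CLDN5 were under 100 on all arrays. Of 7 fibroblast markers, 4 were above 100 on all arrays, with COL1A1 at 17638.9 to 33447.7. None of the 4 immune markers on the array passed the filter. The summed signal of the endothelial list was 1542.6 to 1880.5 in untreated cells, 1414 to 1857.5 after 3 h and 1405.2 to 1474.3 after 8 h, and that of the fibroblast list was 28201.4 to 41737.8, 22024.3 to 32985.9 and 21502.3 to 36895.8. In the blocked fit 3 of 11 tested neural and progenitor markers fell at 8 h, where it passed 3.79% of all genes as lower. The changes were -1.15 on SOX2, -0.80 on SOX9 and -1.18 on GLI2 (adjusted p = 0.0301, 0.0169 and 0.0248 in that fit). The median change of the 11 at 8 h was -0.59. The endothelial marker ERG had -1.30 and the fibroblast marker LUM -0.91 at that time (adjusted p = 0.0316 and 0.0439 in the blocked fit). None of the 5 passed without the block (adjusted p = 0.169 to 0.703). The 8 h arrays of ERG were at 241.9 and 62.6, the second under 100. The median change at 8 h was -0.45 over the 5 tested endothelial markers and -0.29 over the 5 tested fibroblast markers. The fibroblast marker COL1A2 went the other way, by 0.76 at 8 h (adjusted p = 0.0540 in the blocked fit). From 3 h to 8 h COL1A2 rose by 1.23 (adjusted p = 0.0166 in the blocked fit and 0.448 without the block). The part of these shifts in the results on the inhibitors was not tested.

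Promoter sequences (250 bases before and 50 after the start site) from RefSeq on GRCh38.p14 were found for 6 of the 9 genes, and TIMP2, ADAMTS1 and SERPINF1 were not matched. Of the 8 short motifs searched on both strands, the unfolded protein response element TGACGTGG, known as a site of UPR factors, was in the promoter of TIMP1 alone, at 233 bases before the start. These letters were in 0.729% of the 35116 promoters. The GC box GGGCGG was in 5 of the 6 member promoters and in 45% of all promoters, and the CCAAT box in 3 of 6 and in 34.6%. The TATA box TATAAA was in that of THBS2 alone and in 11.5% of all. The AP-1 element TGANTCA, the cAMP response element TGACGTCA, the ATF4 composite element TGATGNAA and the ER stress response element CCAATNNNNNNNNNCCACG, which contains the letters of a CCAAT box, were in none of the 6, against 7.71%, 1.85%, 3.62% and 0.0769% of all promoters. TIMP1 is shown because it alone held UPR letters, and the vasohibins because they are relatives with differing promoters. Capitals mark the motif letters: the UPR element and 2 GC boxes in TIMP1 (chrX:47582186-47582485, plus strand), 2 GC boxes in VASH1 (chr14:76761218-76761517, plus strand), and 2 CCAAT boxes around 1 GC box in VASH2 (chr1:212950291-212950590, plus strand).
TIMP1: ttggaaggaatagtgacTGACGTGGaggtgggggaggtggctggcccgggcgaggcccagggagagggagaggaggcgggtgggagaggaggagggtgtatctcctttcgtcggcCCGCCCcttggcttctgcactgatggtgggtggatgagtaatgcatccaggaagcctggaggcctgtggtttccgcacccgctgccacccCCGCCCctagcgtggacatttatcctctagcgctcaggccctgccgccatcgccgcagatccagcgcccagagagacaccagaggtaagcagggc
VASH1: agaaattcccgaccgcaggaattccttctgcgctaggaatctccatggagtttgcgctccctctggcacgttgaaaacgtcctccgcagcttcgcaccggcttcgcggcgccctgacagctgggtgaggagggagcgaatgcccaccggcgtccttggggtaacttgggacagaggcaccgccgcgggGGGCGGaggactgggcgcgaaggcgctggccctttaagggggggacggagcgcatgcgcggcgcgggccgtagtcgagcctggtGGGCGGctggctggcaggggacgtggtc
VASH2: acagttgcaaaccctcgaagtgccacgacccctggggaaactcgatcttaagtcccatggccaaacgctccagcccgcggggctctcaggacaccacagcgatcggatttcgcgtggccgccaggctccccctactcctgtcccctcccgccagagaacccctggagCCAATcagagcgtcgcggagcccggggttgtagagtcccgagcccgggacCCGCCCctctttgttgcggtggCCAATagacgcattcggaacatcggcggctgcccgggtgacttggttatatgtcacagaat
A match is a run of letters and shows no binding.

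Without the block, none of the 20 tested member probe sets passed in any comparison. In all probe sets 0.0543% passed at 3 h, 0.659% at 8 h and 0% between 8 h and 3 h. At an unadjusted p under 0.05, 1 member probe set was higher at 3 h (4.08% of all probe sets in either direction), 2 were lower at 8 h (9.97%) and 1 was lower at 8 h than at 3 h (6.53%). The local pooled error test named in the methods passed 0 in each comparison. The blocked fit passed 1 higher at 3 h and none lower, where it passed 0.902% of all probe sets as higher and 0.0905% as lower. At 8 h it passed 3 lower and none higher, against 2.80% and 3.79%. Between 8 h and 3 h it passed 4 lower and none higher, against 1.18% and 1.28%. All of these calls lay in 2 genes, TIMP2 and ADAMTS1. The median change over the tested member probe sets was -0.08 at 3 h, -0.15 at 8 h and -0.37 between 8 h and 3 h, beside -0.02, -0.09 and -0.07 over all tested probe sets.

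**Figure D1:**
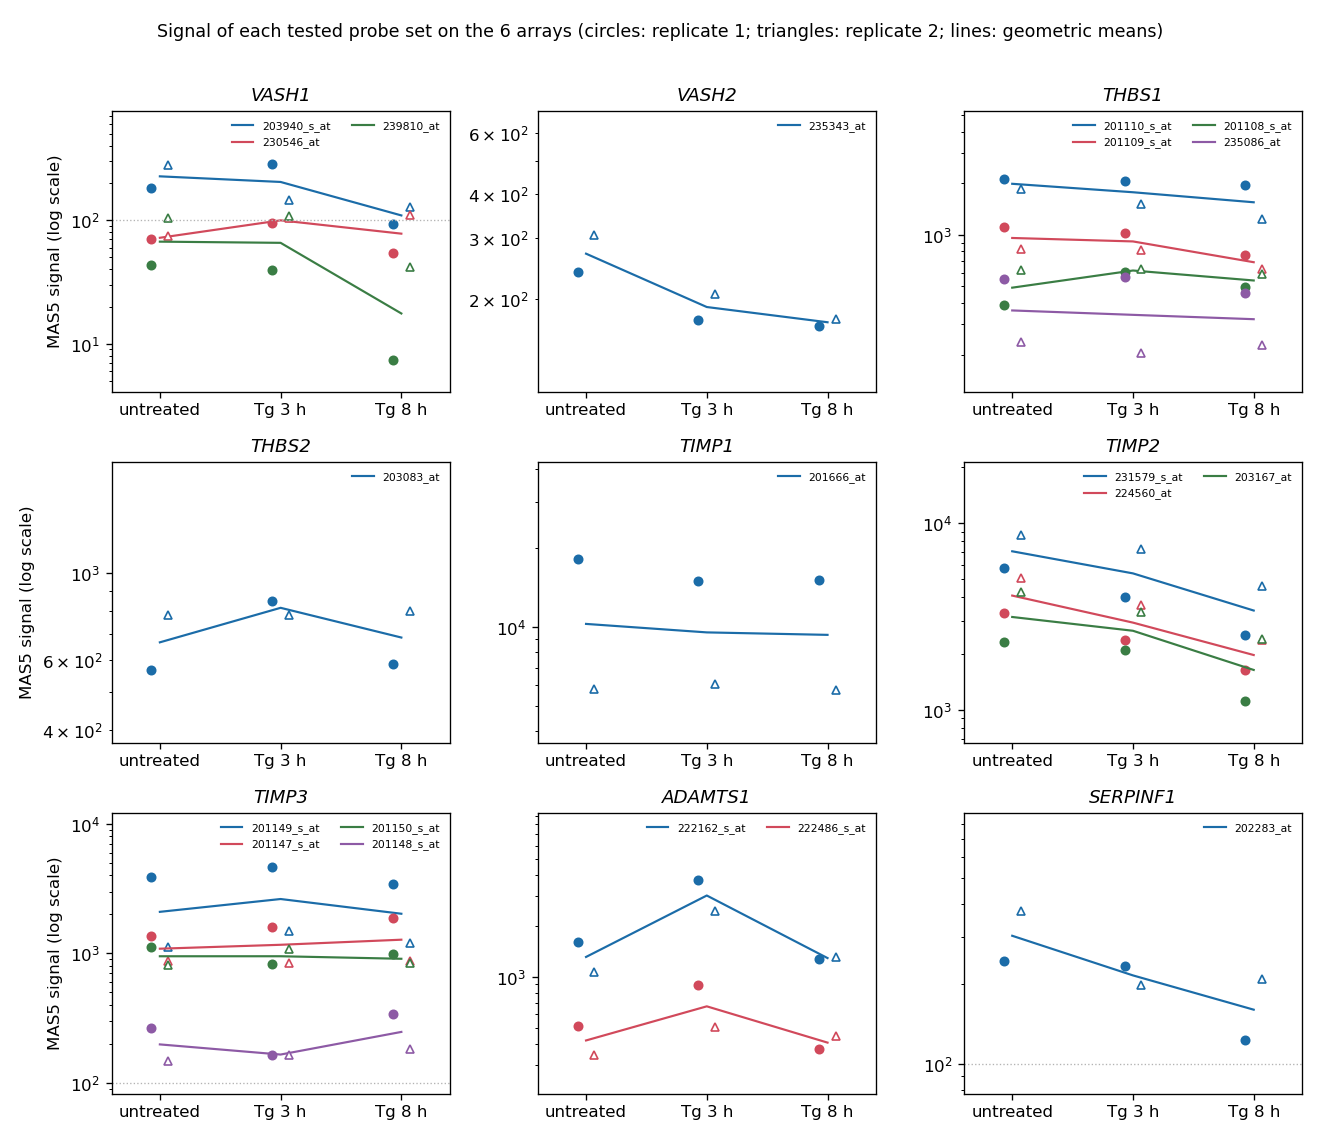
MAS5 signal (log axis) of the 20 tested probe sets of the 9 genes in untreated cells and after 3 h and 8 h of Tg, with circles for replicate 1, triangles for replicate 2, lines joining the geometric means of the 2 arrays, and a dotted line at 100 where it lies within the axis. The 3 probe sets of TIMP2 run downward together, ADAMTS1 peaks at 3 h, and TIMP1 is split by replicate rather than by time.

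TIMP2, which inhibits metalloproteinases and takes part in the activation of MMP2 at the cell surface, had the lowest signals of its 3 probe sets in cells treated for 8 h. On 231579_s_at the signal was 5757.8 and 8696.0 on untreated replicates 1 and 2, 4010.2 and 7235.2 after 3 h, and 2520.7 and 4599.5 after 8 h. On 224560_at it was 3304.7 and 5075.2, then 2369.8 and 3629.9, then 1632.1 and 2367.4. On 203167_at it was 2306.4 and 4286.1, then 2101.5 and 3347.4, then 1109.4 and 2409.1. Both 8 h arrays lay below both untreated arrays on the first 2 of these probe sets, while on 203167_at the 8 h array of replicate 2 lay just above the untreated array of replicate 1. Within each replicate number the signal at 8 h was 43.8% to 56.2% of that in untreated cells. Replicate 2 was above replicate 1 in every group, by 0.54 to 1.12 on the log2 scale.

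The mean change of TIMP2 at 8 h was a log2 fold change of -1.06 (SE 0.39) on 231579_s_at, -1.06 (SE 0.32) on 224560_at and -0.94 (SE 0.44) on 203167_at, with n = 2 arrays a group. Without the block these did not pass in limma (adjusted p = 0.406, 0.264 and 0.532). In the blocked fit all 3 fell, with SEs of 0.12, 0.12 and 0.15 and adjusted p = 0.00114, 0.00111 and 0.00489. The 3 probe sets read 1 gene on the same arrays and are not separate evidence. All 3 also passed in the blocked fit after each of the 6 arrays was left out in turn. Leaving out a Tg 3 h array could not move these changes at 8 h, so those runs bore on the spread alone. In all such fits the estimate of the spread rested largely on the other probe sets. At 3 h the changes were -0.39, -0.48 and -0.25, and none passed in the blocked fit (adjusted p = 0.259, 0.150 and 0.551). From 3 h to 8 h the blocked fit passed all 3, with changes of -0.66, -0.58 and -0.70 (adjusted p = 0.0268, 0.0448 and 0.0406), which were not past the threshold without the block (adjusted p = 0.846, 0.832 and 0.867). These calls were less firm. On 224560_at the call was lost whichever array was left out of the blocked fit (adjusted p = 0.0556 to 0.225), and on 231579_s_at it was lost without Tg 3 h replicate 2 (adjusted p = 0.103). None of the 3 kept it without Tg 3 h replicate 1 or without Tg 8 h replicate 1, where the adjusted p values in the blocked fit ran from 0.153 to 0.314 and from 0.203 to 0.385.

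TIMP1, a soluble inhibitor of most matrix metalloproteinases, and TIMP3, which binds to the matrix and also inhibits ADAM17, did not pass in either fit. TIMP1, the gene whose promoter held the UPR letters shown above, had 18147.2 and 5804.2 in untreated cells, 15014.3 and 6045.6 after 3 h, and 15082.5 and 5763.3 after 8 h. The replicate 1 array was the brighter in every group, by 1.31 to 1.64 on the log2 scale, and the 3 groups overlapped fully. The change of TIMP1 was -0.11 at 3 h and -0.14 at 8 h. The 95% interval at 8 h was -1.67 to 1.39 without the block and -0.41 to 0.13 in the blocked fit.

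TIMP3 was read by 4 probe sets. On 201149_s_at the signal was 3926.6 and 1117.5 in untreated cells, 4616.5 and 1499.6 after 3 h, and 3418.5 and 1199.2 after 8 h. On 201147_s_at it was 1361.9 and 868.1, then 1604.1 and 847.3, then 1868.0 and 871.9. These 2 probe sets followed the replicate, since every replicate 1 array exceeded every replicate 2 array whatever the treatment. On 201150_s_at it was 1116.8 and 809.0, then 830.4 and 1088.8, then 986.4 and 837.6. On 201148_s_at, the dimmest, it was 266.5 and 147.4, then 165.4 and 165.6, then 338.1 and 181.2. The treated and untreated groups overlapped on all 4 at both times. The changes at 8 h ran from -0.06 to 0.32 and had different signs on different probe sets, with adjusted p of at least 0.904 without the block and at least 0.482 with it.

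**Figure D2:**
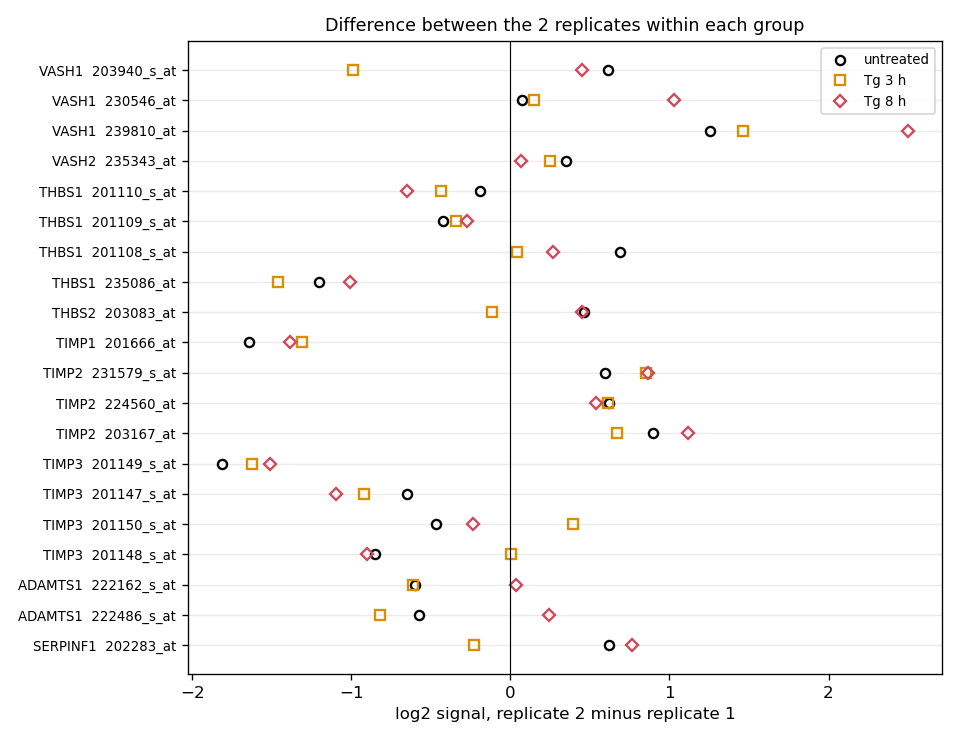
Log2 signal of replicate 2 minus that of replicate 1 in untreated cells (circles), after Tg 3 h (squares) and after Tg 8 h (diamonds), for each tested probe set. TIMP1 sits between -1.64 and -1.31 in all 3 groups and the 3 probe sets of TIMP2 between 0.54 and 1.12, whereas ADAMTS1 222162_s_at is near -0.60 in 2 groups and at 0.03 after 8 h.

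ADAMTS1, a secreted protease with thrombospondin repeats, was highest after 3 h. On 222162_s_at the signal was 1612.1 and 1065.8 in untreated cells, 3752.6 and 2450.7 after 3 h, and 1276.0 and 1305.9 after 8 h. Both 3 h arrays lay above all 4 other arrays, and the 8 h arrays lay between the 2 untreated ones. The change at 3 h was 1.21 (SE 0.28), a 2.31-fold difference, and it was 1.22 in replicate 1 and 1.20 in replicate 2. It did not pass in limma without the block (adjusted p = 0.469) and rose in the blocked fit (SE 0.18, adjusted p = 0.0132). In the blocked fit the call was lost without untreated replicate 2 (1.06, adjusted p = 0.0685) and without Tg 3 h replicate 1 (1.04, adjusted p = 0.204). At 8 h the change was -0.02.

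The change of ADAMTS1 from 3 h to 8 h was -1.23 (SE 0.28), with adjusted p = 0.396 without the block and 0.0123 with it. It was -1.56 in replicate 1 and -0.91 in replicate 2. Without Tg 3 h replicate 1 it was -1.07 in the blocked fit and no longer passed (adjusted p = 0.149). The other ADAMTS1 probe set, 222486_s_at, had 511.7 and 343.3 in untreated cells, 887.8 and 502.5 after 3 h, and 374.2 and 442.7 after 8 h. Its group means ran in the same order as those of the first, although the 3 h array of replicate 2 fell just under the untreated array of replicate 1. Its change of 0.67 at 3 h (SE 0.35) did not pass in either fit (adjusted p = 1.00 without the block and 0.380 with it).

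VASH1, the vasohibin that endothelial cells make as a feedback inhibitor, was dim in these cells. On 203940_s_at the signal was 183.0 and 279.7 in untreated cells, 287.1 and 144.6 after 3 h, and 93.5 and 127.6 after 8 h. Both 8 h arrays lay below all 4 others, and at 3 h the replicates went opposite ways, by 0.65 in replicate 1 and -0.95 in replicate 2. The change at 8 h was -1.05 (SE 0.48, 95% interval -2.16 to 0.06), or 48.3% of the untreated signal, and it did not pass in either fit (adjusted p = 0.528 without the block and 0.226 with it). VASH1 was picked out in the study on these same arrays, so its direction here is no independent evidence. The other 2 tested VASH1 probe sets were near the limit of 100. 230546_at had 70.3 and 73.8, then 94.6 and 105.0, then 54.5 and 111.0, and changed by 0.11 at 8 h. 239810_at had 43.4 and 103.5, then 39.5 and 108.8, then 7.4 and 41.8, and its change of -1.93 at 8 h became -0.02 when signals under 100 were raised to 100. Of the 2 untested VASH1 probe sets, 1556423_at had 91.7 and 85.5, then 119.1 and 24.0, then 24.6 and 35.0. The other, 242566_at, had 15.4 and 4.4, then 26.1 and 4.1, then 82.5 and 4.2, all under 100.

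VASH2 on 235343_at had 239.6 and 305.2 in untreated cells, 174.5 and 207.2 after 3 h, and 168.2 and 175.8 after 8 h. All 4 treated arrays lay below both untreated arrays. The change was -0.51 (SE 0.34) at 3 h and -0.65 (SE 0.34, 95% interval -1.45 to 0.14) at 8 h, and neither passed (adjusted p = 1.00 and 0.594 without the block, 0.562 and 0.274 with it). The untested 219740_at ran from 41.3 to 120.8 and 1555092_at from 29.2 to 70.4.

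SERPINF1, whose product acts on endothelial cells and neurons, had 244.6 and 375.4 in untreated cells, 232.7 and 198.8 after 3 h, and 122.8 and 208.2 after 8 h on its probe set 202283_at. Treated arrays were below untreated arrays at both times. The change at 8 h was -0.92 (SE 0.40, 95% interval -1.86 to 0.01) and was close within the 2 replicate numbers, -0.99 and -0.85. It did not pass without the block (adjusted p = 0.510) or with it (adjusted p = 0.162). At 3 h it was -0.49, from -0.07 in replicate 1 and -0.92 in replicate 2.

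THBS1, which encodes a matrix glycoprotein that restrains endothelial cells and activates TGF-beta, was read by 4 tested probe sets. On 201110_s_at it had 2119.7 and 1855.1, then 2059.0 and 1522.1, then 1939.5 and 1234.5. On 201109_s_at it had 1110.1 and 827.1, then 1028.9 and 813.4, then 760.6 and 629.8, and this was the sole THBS1 probe set on which both 8 h arrays lay below both untreated arrays. Its change at 8 h was -0.47 (SE 0.25) and passed in neither fit (adjusted p = 0.605 unblocked and 0.136 blocked). On 201108_s_at THBS1 had 387.3 and 624.4, then 610.1 and 628.3, then 493.6 and 594.2. On 235086_at it had 550.1 and 238.5, then 567.1 and 205.6, then 456.8 and 227.1, where replicate 1 was above replicate 2 in each group by 1.01 to 1.46 on the log2 scale. The probe sets thus gave changes at 8 h from -0.47 to 0.14, which differ in sign. The 3 untested THBS1 probe sets, 201107_s_at, 215775_at and 239336_at, lay between 2.7 and 159.4.

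THBS2, a relative of THBS1 with similar repeats, had 568.3 and 781.5 in untreated cells, 848.6 and 783.1 after 3 h, and 586.6 and 800.8 after 8 h on 203083_at. Its change at 8 h was 0.04, with a 95% interval of -0.57 to 0.65, and values of 0.05 and 0.04 within the 2 replicate numbers. At 3 h it was 0.29 and did not pass in either fit (adjusted p = 1.00 and 0.614). Both 3 h arrays lay above the untreated ones, replicate 2 by less than 2 units.

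**Figure D3:**
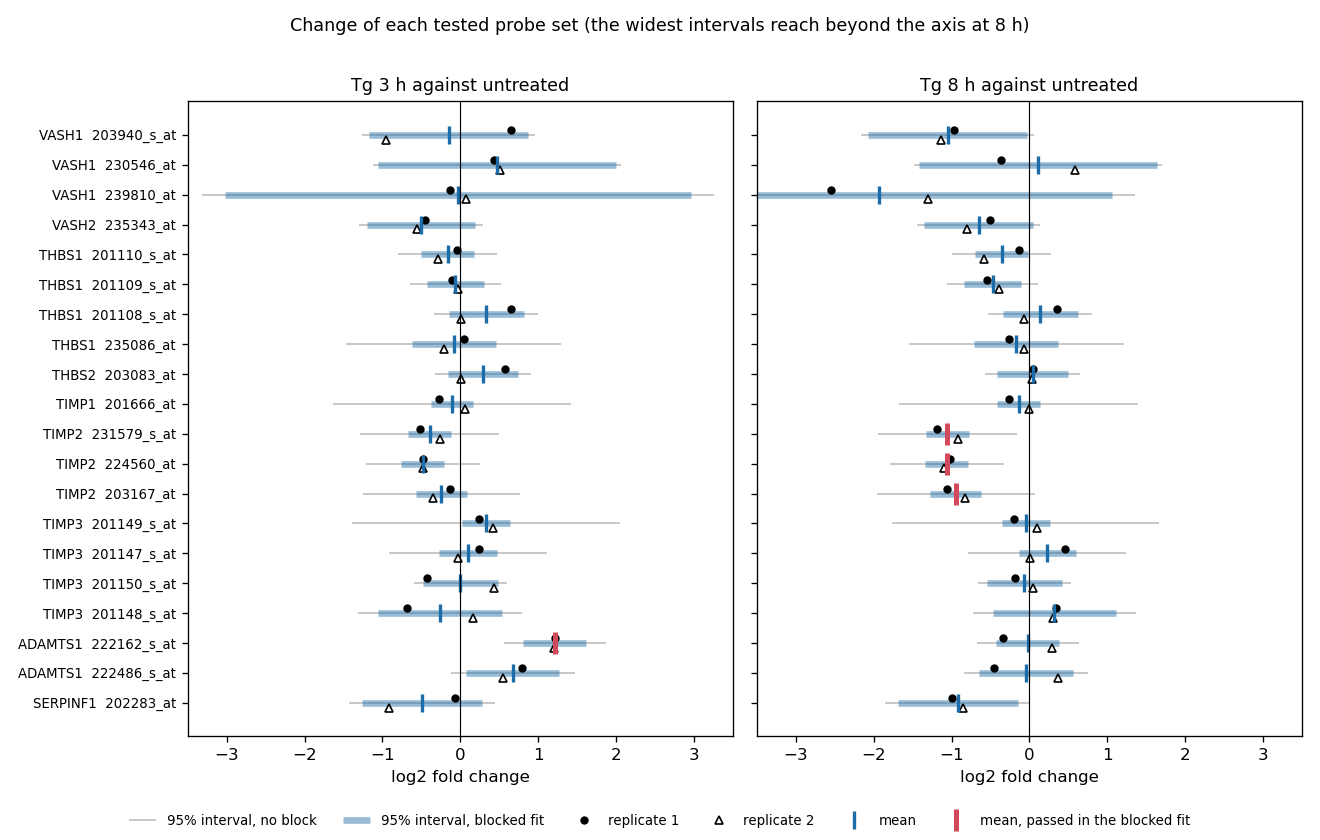
Log2 fold change of each tested probe set at 3 h (left) and 8 h (right) against untreated cells, with the change within each replicate number (circles, replicate 1, and triangles, replicate 2), the mean (vertical tick, red where it passed in the blocked fit), the 95% interval without the block (grey) and in the blocked fit (blue). ADAMTS1 222162_s_at at 1.21 is the 1 probe set marked at 3 h, and the 3 probe sets of TIMP2 at -1.06, -1.06 and -0.94 are those marked at 8 h.

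Counted over the 20 tested probe sets, both 3 h arrays lay above both untreated arrays on 3 and below on 2, against 14.0% and 15.9% of all tested probe sets. At 8 h none lay above and 7 lay below, against 14.9% and 24.5%. The 7 were 2 of TIMP2, 2 of VASH1, and 1 each of VASH2, THBS1 and SERPINF1. The share at 8 h is to be read against a background in which lower was more common than higher throughout the array.

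The genes that followed the members most closely over the 6 arrays were found by Pearson's r of log2 signal among 11085 candidate probe sets. Each member was read on its brightest probe set alone, and its other probe sets were not compared. For TIMP3 these were RPS23 and COX14 (both r = 0.999), for TIMP2 GSTA4 and JADE3 (both 0.995), and for THBS1 HELLS (0.997) and ZNF551 (0.995). RPS23, a ribosomal protein gene, had 86568.5 and 44475.0 in untreated cells, a split by replicate like that of TIMP3 201149_s_at. On TIMP3 201150_s_at and 201148_s_at the replicates did not differ in the same direction in every group. For ADAMTS1 they were SNAI2 (0.987), a transcription factor of mesenchymal cells, and FOSL2 (0.981), a subunit of AP-1. SNAI2 had 3274.6 and 2196.2, then 7905.1 and 4604.5, then 2385.5 and 2155.6, the same peak at 3 h as ADAMTS1. For VASH1 they were SIX4 (0.992) and YIPF1 (0.984). These values describe 6 arrays that share groups and replicates, and no test was made of them.

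Among related genes, each read on its brightest probe set, none passed without the block at 3 h or 8 h. At 3 h the blocked fit also passed none of them, where it passed 1.17% of 12839 genes as higher and 0.0779% as lower. At 8 h it passed 4.76% of genes as higher and 3.79% as lower. Of 8 tested members of the same families, 1 fell in the blocked fit at 8 h: ADAMTS15, another proteoglycan-cleaving protease, had 473.4 and 265.9, then 846.0 and 342.5, then 198.9 and 132.3, a change of -1.13 (adjusted p = 0.508 without the block and 0.0369 with it). ADAMTS15 and ADAMTS1 were both highest after 3 h within each replicate number. So was ADAMTS5, with 885.0 and 603.3, then 1404.1 and 649.1, then 818.7 and 352.6. ADAMTS5 did not pass in either fit at 3 h or 8 h. Of 17 tested genes of other secreted inhibitors, 3 fell in the blocked fit at 8 h and none rose.

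Among these 3 were COL4A1 and COL4A2, the basement membrane collagens whose fragments arresten and canstatin inhibit vessel growth. COL4A1 had 4980.7 and 4076.9 in untreated cells and 2966.3 and 2362.0 after 8 h, a change of -0.77 (adjusted p = 0.00786 in the blocked fit), and COL4A2 had 6414.1 and 6500.1, then 4664.9 and 3107.7, a change of -0.76 (0.0242). HTRA1, a secreted serine protease, had 1671.4 and 1550.2, then 1099.5 and 880.5, a change of -0.71 (0.0226). On all 3 both 8 h arrays lay below both untreated arrays, as on 24.5% of all tested probe sets. The 3 were named for their fall in the blocked fit, so this adds no support. Without the block the adjusted p values were 0.290 to 0.344. The 17 changes at 8 h had a median of -0.04, beside -0.09 over all genes.

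On the side of the enzymes, 13 genes were tested of a list of 20 that held metalloproteinases and the membrane inhibitor RECK, and MMP2 alone passed at 8 h in the blocked fit. MMP2, the gelatinase whose activation involves TIMP2, had 3975.6 and 6300.9 in untreated cells and 2814.4 and 3947.9 after 8 h, a change of -0.59 (adjusted p = 0.554 without the block and 0.0318 with it). Its untreated and 8 h arrays did not overlap, by a narrow margin, and MMP2 too was named for its fall. The median of the 13 was 0.16. Of 12 tested receptors and binding partners, such as the thrombospondin receptor CD47 and the integrin subunit ITGB1, none passed in either fit, with a median of 0.01.

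**Figure D4:**
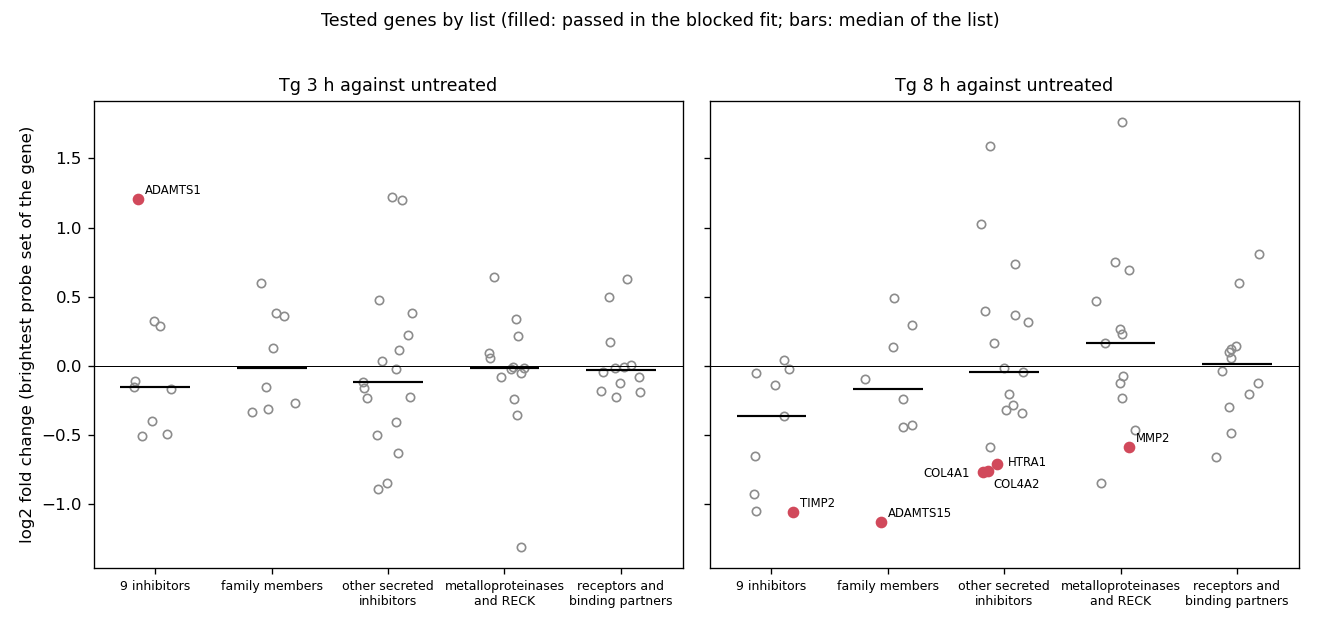
Log2 fold change of tested genes at 3 h (left) and 8 h (right), each on its brightest probe set, in the 9 inhibitors and the 4 related lists, with filled and named points where the blocked fit passed and bars at the median of each list. The filled points are ADAMTS1 at 3 h, and TIMP2, ADAMTS15, COL4A1, COL4A2, HTRA1 and MMP2 at 8 h, all of these last ones below 0.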

How the data were processed

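Total RNA of 6 cultures was labelled and hybridized to HG-U133 Plus 2.0 arrays. The deposited values were signal intensities that the authors computed with MAS5 and scaled on each array to a 2% trimmed mean of 500. This scaling holds the overall brightness of arrays equal, so a change is relative to the other genes of the array. Groups and replicate numbers came from the labels. Gene names came from the platform annotation: 41097 probe sets had 1 symbol, 1801 several and 11777 none.

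Signals were log2-transformed and fitted over all 6 arrays with limma 3.58.1 in R 4.3.3 (group as term, intensity trend, two-sided tests). The replicate number as a block was the alternative: arrays of the same number deviated from their group means together (r = 0.26 to 0.32 over tested probe sets, 0.66 to 0.70 over the 12451 with a mean signal of at least 500), and the number was treated as a batch of 3 arrays. Intervals are at 95%. Other alternatives were the methods' local pooled error test (written anew here), no trend, quantile normalization, median centring, other filters, a floor of 100, a pseudocount of 50, only 4 arrays, and leaving out each array; the blocked fit with each array left out was added after seeing the data. Fits were tested on simulated data. Figures were drawn with matplotlib 3.10.9.

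The 9 members and all lists were chosen with earlier results of these data known. Named were all member probe sets, up to 4 genes per list with the largest change among those passing in either fit, the UPR genes, and the 2 genes most like VASH1, THBS1, TIMP2, TIMP3 and ADAMTS1 (mean signal 500 or more). Marker genes given without a test result, COL1A2 and ADAMTS5 were named after their values were seen. Of the 32 other secreted inhibitors listed, 31 had a probe set, as had 13 of 14 receptors.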

Additional observations from a re-analysis of the deposited data

Results flagged for a closer look

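In 4 member probe sets the change at 8 h differed from that at 3 h, by the test of 8 h against 3 h in the blocked fit, which did not hold without the block. The differences in log2 signal were -0.66 on TIMP2 231579_s_at, -0.58 on TIMP2 224560_at, -0.70 on TIMP2 203167_at and -1.23 on ADAMTS1 222162_s_at. Within each of the 2 replicate numbers all 4 were lower at 8 h than at 3 h. The 4 were flagged for this fall in the blocked fit, so this adds no support. With 2 arrays a group, no array was tested as an outlier within its group.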

How the results depend on the processing

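The replicate block moved the count of passing probe sets from 15 to 274 at 3 h, from 182 to 1819 at 8 h and from 0 to 678 between 8 h and 3 h, and that of member probe sets from 0 to 1, 3 and 4. The local pooled error test passed 57, 281 and 50, with no member. At 3 h the count was 28 with quantile normalization, 24 without the filter, 5 with signals raised to 100, 8 on 4 arrays and 0 to 34 with 1 array left out. At 8 h it was 107 with signals raised to 100, 94 on 4 arrays and 2 to 203 with 1 array left out. Without the intensity trend it was 0 at both times. With 1 array left out of the blocked fit, the member count was 0 to 1 at 3 h, 3 at 8 h and 0 to 4 between 8 h and 3 h, and the count over all probe sets was 91 to 653, 627 to 1995 and 36 to 1192.

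No member passed without the block under any alternative. No change that passed in the blocked fit turned sign in the comparison where it passed. TIMP3 201150_s_at at 3 h was -0.023 with quantile normalization and -0.016 with median centring. At 8 h median centring gave 0.044 on TIMP3 201149_s_at and 0.029 on 201150_s_at, 0.071 on ADAMTS1 222162_s_at and 0.051 on 222486_s_at, and quantile normalization gave 0.010 and 0.040 on these last 2. With signals raised to 100, VASH1 239810_at at 3 h was 0.036. The log2 changes whose sign turned when 1 array was left out ranged at 3 h as follows: VASH1 203940_s_at -0.65 to 0.34, VASH1 239810_at -0.76 to 0.70, THBS1 201110_s_at -0.38 to 0.054, THBS1 201109_s_at -0.28 to 0.15, THBS1 201108_s_at -0.012 to 0.68, THBS1 235086_at -0.82 to 0.65, TIMP1 201666_at -0.93 to 0.71, TIMP2 231579_s_at -0.82 to 0.032, TIMP2 203167_at -0.69 to 0.20, TIMP3 201149_s_at -0.58 to 1.24, TIMP3 201147_s_at -0.36 to 0.56, TIMP3 201150_s_at -0.23 to 0.23, TIMP3 201148_s_at -0.69 to 0.17. At 8 h they ranged as follows: VASH1 230546_at -0.40 to 0.62, THBS1 201108_s_at -0.21 to 0.48, THBS1 235086_at -0.77 to 0.43, THBS2 203083_at -0.19 to 0.27, TIMP1 201666_at -0.96 to 0.68, TIMP3 201149_s_at -0.96 to 0.86, TIMP3 201147_s_at -0.32 to 0.78, TIMP3 201150_s_at -0.30 to 0.17, TIMP3 201148_s_at -0.13 to 0.77, ADAMTS1 222162_s_at -0.32 to 0.28, ADAMTS1 222486_s_at -0.33 to 0.25. TIMP2, SERPINF1 and VASH1 203940_s_at at 8 h, VASH2 at both times and ADAMTS1 222162_s_at at 3 h kept their sign under every alternative run. Many of these alternatives return the same change and could not turn a sign. They are the block, the local pooled error test, no trend, the other filters and the fit on only 4 arrays. Leaving out an array of a group not compared could not turn a sign either. With 2 arrays a group, a change that did not pass is not shown to be absent.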
